A study of Mus musculus with 26 samples.

Results

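Genes of the NAD salvage route and of NAD-using enzymes were followed in the mouse choroid plexus (ChP) of the 4th ventricle, the epithelium that secretes cerebrospinal fluid. The 10 genes were Nampt, Nmnat1, Nmnat2, Nmnat3, Naprt, Sirt1, Sirt2, Sirt3, Sirt6 and Parp1, taken by gene symbol from 55416 genes in the table, and all 10 were present and passed the filter on low counts. The libraries came from adult male mice. Ctrl mice (sham surgery, n = 12) and SCNx mice (surgical ablation of the suprachiasmatic nuclei, the central circadian clock, n = 12) were C57Bl6J animals, sampled in constant darkness every 4 h from circadian time (CT) 0 to CT44, with 1 mouse per time point and group. Another 2 mice carried FoxJ1-ERT2-Cre+/- and Bmal1fl/fl, received tamoxifen in the diet and were sampled in a light/dark cycle at Zeitgeber time (ZT) 7 and ZT18 (KO). In KO mice Cre is driven from the promoter of FoxJ1, a gene of cells with motile cilia, recombination was tested by the submitters in liver, and there was no matching floxed control without Cre. The design asks whether these transcripts follow a 24 h rhythm in ChP and whether rhythm or level differs after SCN ablation.

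NAD is rebuilt from nicotinamide in 2 steps: Nampt makes nicotinamide mononucleotide (NMN), and the Nmnat enzymes join NMN to ATP to give NAD. Naprt starts a parallel route from nicotinic acid. Sirtuins and Parp1 consume NAD and release nicotinamide. In other tissues Nampt is known as a target of the circadian activators CLOCK and BMAL1, and Sirt1 as an enzyme that acts on clock proteins.

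Ctrl libraries held 38751201 to 47335258 estimated counts, SCNx libraries 41807043 to 49527655, and the KO libraries 17425207 and 18059227. ChP epithelium markers (6 of 6 genes, led by Ttr) summed to between 104215 and 164117 CPM (counts scaled to a common library size) in the Ctrl and SCNx libraries and to between 80807 and 85011 in KO. Several libraries stood apart from the rest. Hepatocyte markers (8 of 8 genes present) summed to 2130 CPM in Ctrl CT16 and 11372 CPM in SCNx CT0, against medians of 1.77 and 3.17 in the groups. Neuronal and cerebellar markers (8 of 8) summed to 248 CPM in Ctrl CT4 and 323 CPM in SCNx CT32, against medians of 15.3 and 13.9. In bulk tissue, fewer cells of a type and less RNA per cell cannot be told apart.

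Promoter sequence was available for 9 of the 10 genes, with 12 start sites (RefSeq, build GRCm38.p6). The 250 bases before each start were searched on both strands for the E-box CACGTG bound by CLOCK and BMAL1, the related CACGTT, the D-box TTANGTAA, the Rev-erb and ROR element TAGGTCA and, as a comparison, the GC box GGGCGG. The Nampt window is shown because Nampt was the gene called rhythmic below, and a stretch each of Sirt1 and Parp1 because it holds an E-box (in Sirt1 the one farther from the start). Capitals mark GC boxes in Nampt, read on either strand, and the E-box in Sirt1 and Parp1.
Nampt, chr12:32820085-32820334, plus strand: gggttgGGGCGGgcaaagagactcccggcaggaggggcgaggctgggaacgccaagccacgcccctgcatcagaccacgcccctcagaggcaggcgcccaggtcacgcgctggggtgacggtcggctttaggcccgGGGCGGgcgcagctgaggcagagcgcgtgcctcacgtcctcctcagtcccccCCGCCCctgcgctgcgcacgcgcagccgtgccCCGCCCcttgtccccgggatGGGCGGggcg
Sirt1, chr10:63339118-63339177, minus strand: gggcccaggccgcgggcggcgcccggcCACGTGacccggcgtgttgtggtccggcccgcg
Parp1, chr1:180568815-180568874, plus strand: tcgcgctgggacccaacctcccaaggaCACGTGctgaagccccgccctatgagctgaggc
The Nampt window held 5 GC boxes and none of the clock-related motifs. The Sirt1 window held 2 E-boxes, 115 and 43 bases before the start, and the Parp1 window 1, at 49 bases. The other 9 windows held no E-box, and none of the 12 held CACGTT, the D-box or TAGGTCA. Among all 32851 promoters of this length 6.02% held CACGTG, 3.85% CACGTT, 2.06% the D-box, 2.23% TAGGTCA and 32.7% the GC box. These matches describe letters in a short window and say nothing of binding.

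In Ctrl ChP, 1 of the 10 genes, Nampt, had a significant 24 h rhythm (edgeR quasi-likelihood test of a cosine and a sine, Benjamini-Hochberg adjusted p under 0.05 over all 13697 tested genes). Of all tested genes 10.7% were called in the same test. Before adjustment 2 of the 10, Nampt and Sirt3, were under 0.05 in Ctrl, beside 24.8% of all genes. In SCNx ChP none of the 10 was called (0% of all genes were). At an unadjusted p under 0.05, Nmnat1, Nmnat2 and Naprt passed in SCNx, 3 of 10 beside 14.8% of all genes. Nmnat2 (42.8 CPM in SCNx CT32, next 16.7) and Naprt (9.87 in SCNx CT0, next 2.12) each had 1 library far above the rest. DESeq2 called Nmnat2 in SCNx, with 432 of all 13697 genes called. The test of the difference in rhythm between the groups called none of the 10 (2.12% of all genes were called), with Nampt and Naprt under 0.05 before adjustment (15.1% of all genes were) and 0 calls by DESeq2 or limma. The level over all times differed for none of the 10 with edgeR, DESeq2 or limma, and for none before adjustment with edgeR (0% of all genes were called, 9.37% before adjustment). The median amplitude of the 10 genes in Ctrl was 0.113 on the log2 CPM scale, beside 0.109 over all tested genes.

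**Figure D1:**
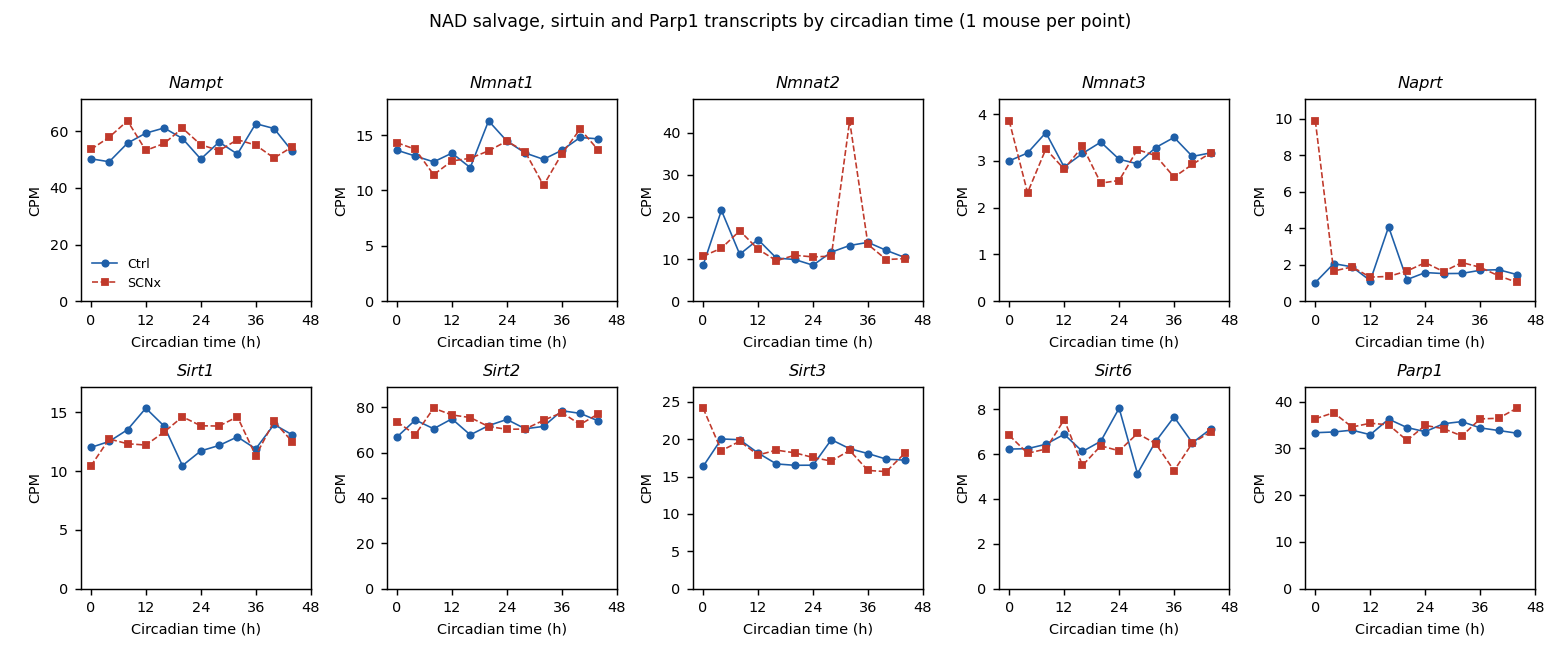
CPM of each of the 10 genes (y axis, from 0) against circadian time in h (x axis) in Ctrl (blue circles) and SCNx (red squares), 1 mouse per point. Nampt in Ctrl moved between 49.2 and 62.7 CPM, while single libraries stood far above the rest for Nmnat2 (SCNx CT32, 42.8 CPM) and Naprt (SCNx CT0, 9.87 CPM).

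Nampt, the rate-limiting enzyme of NAD salvage from nicotinamide, was rhythmic in Ctrl with a peak early in the subjective night. On the first day its level was 50.3 CPM at CT0, 49.2 at CT4, 55.8 at CT8, 59.3 at CT12, 61.2 at CT16 and 57.4 at CT20. On the second day it was 50.2 at CT24, 56.2 at CT28, 51.9 at CT32, 62.7 at CT36, 61 at CT40 and 52.9 at CT44. On both days the highest values fell at the same pair of times, CT12 and CT16 or CT36 and CT40, and the lowest values of the series were at CT4, CT24 and CT0. The fitted amplitude was 0.14 ± 0.03 (SE, log2 CPM), with a peak at CT14.0 ± 0.76 h and a fitted peak 1.22 times the trough (edgeR adjusted p = 0.0275). The 24 h curve accounted for 73.8% of the variance of log2 CPM.

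In SCNx the Nampt level ran from 50.6 CPM (CT40) through a median of 55.2 to 63.7 (CT8), and the second highest value, 61.1, was at CT20. The times of high and low values were therefore not those of Ctrl, and the ranges of the groups overlapped. The amplitude was 0.04 ± 0.04 (edgeR adjusted p = 0.772). The difference in rhythm between the groups did not pass the test after adjustment (edgeR p = 0.0115, adjusted p = 0.177), so a loss of the Nampt rhythm in SCNx is not shown by these data. Ctrl libraries averaged 55.7 ± 4.73 CPM and SCNx libraries 55.9 ± 3.62 (SD, n = 12 each), and the 95% interval of the fold, SCNx over Ctrl, was 0.946 to 1.07 (edgeR adjusted p = 0.982).

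The Nampt rhythm was a small one among the genes called. Of the 1459 genes rhythmic in Ctrl, 155 (10.6%) had a smaller amplitude, and the median amplitude of the 1459 was 0.25. The adjusted p was past 0.05 when Ctrl CT4 (0.0604), CT16 (0.0555), CT24 (0.0596) or CT36 (0.0664) was left out, and in the rank test of the eJTK type (0.0778). For reference, the clock genes in Ctrl peaked at CT7.55 (Nr1d1), CT10.2 (Dbp), CT14.8 (Per2) and CT22.8 (Arntl, which encodes BMAL1).

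**Figure D2:**
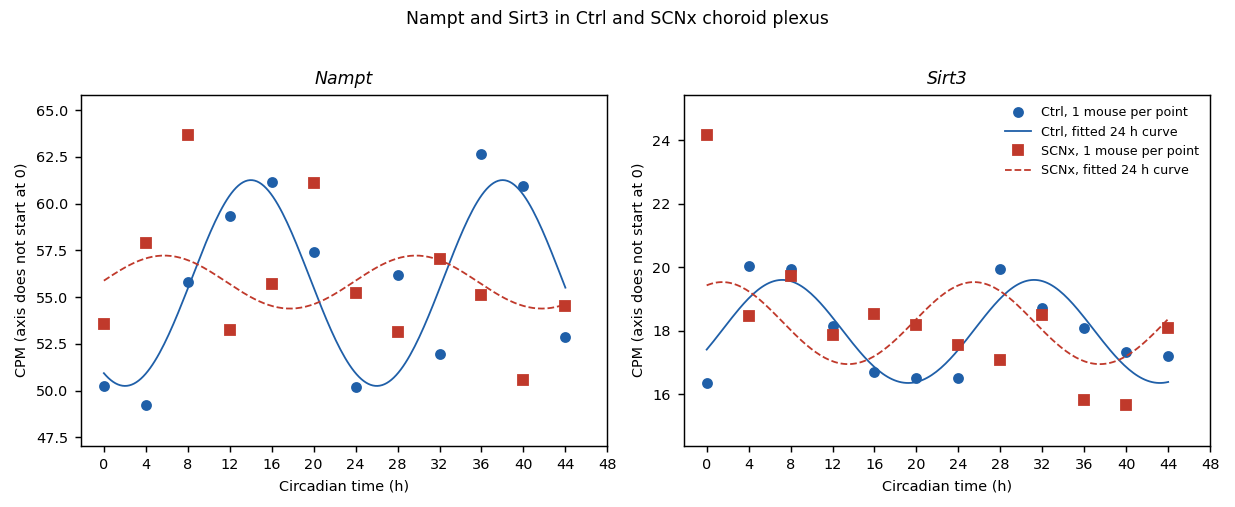
CPM (y axis, not from 0) of Nampt and Sirt3 against circadian time in h, in Ctrl (blue circles, solid fitted 24 h curve) and SCNx (red squares, dashed curve), 1 mouse per point. The Ctrl curve of Nampt peaked at CT14.0 and that of Sirt3 at CT7.21, and the SCNx curve of Nampt was nearly flat (amplitude 0.04 beside 0.14 in Ctrl).

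The Nmnat enzymes catalyse the last step to NAD, Nmnat1 in the nucleus, Nmnat2 at Golgi and axonal vesicles, where it is a known survival factor of axons, and Nmnat3 in mitochondria. None was called in either group. Nmnat1 ran from 12.1 CPM (CT16) through a median of 13.5 to 16.3 (CT20) in Ctrl, and from 10.5 (CT32) through 13.5 to 15.5 (CT40) in SCNx. Its fitted peaks lay close together, at CT20.5 ± 1.43 h in Ctrl (amplitude 0.11 ± 0.04) and CT20.7 ± 1.34 h in SCNx (0.14 ± 0.05). The edgeR adjusted p was 0.268 in Ctrl, 0.258 in SCNx and 0.946 for the difference. SCNx CT32, the lowest for Nmnat1 in SCNx, was a library rich in neuronal markers. Without it and Ctrl CT4 the Nmnat1 amplitude in SCNx was 0.10 ± 0.05 (edgeR adjusted p = 0.443). In Ctrl it was 0.10 ± 0.04 (adjusted p = 0.156). Nmnat3 was low and flat, at 3.19 ± 0.226 CPM in Ctrl and 2.98 ± 0.428 in SCNx (SD, n = 12 each), with amplitudes of 0.04 ± 0.04 and 0.01 ± 0.09.

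Nmnat2 was highest in the 2 libraries rich in neuronal markers, which also had the highest sums of astrocyte and oligodendrocyte markers in their groups. Astrocyte markers (5 of 5 genes) summed to 732 CPM in Ctrl CT4 and 825 in SCNx CT32 (medians 147 and 144), and oligodendrocyte markers (5 of 5) to 150 and 262 (medians 74.4 and 67.5). In Ctrl it ran from 8.53 CPM (CT0) through a median of 11.4 to 21.6 (CT4), and the next highest value was 14.6 (CT12). In SCNx it ran from 9.61 (CT16) through 10.8 to 42.8 (CT32), and the next highest was 16.7 (CT8). With all libraries the Ctrl rhythm was not called (edgeR adjusted p = 0.463). Without Ctrl CT4 and SCNx CT32 the Ctrl values lay between 8.53 and 14.6 CPM, the amplitude was 0.30 ± 0.06, the peak fell at CT11.1 ± 0.78 h, and the rhythm was called (adjusted p = 0.00534, and 0.00361 when Ctrl CT16 and SCNx CT0 were left out as well). These fits called 2223 of 13490 and 2901 of 13374 genes in Ctrl. Of 36 alternatives only these 2 called Nmnat2 in Ctrl. With 1 library left out, Ctrl CT4 included, it was not called (lowest edgeR adjusted p = 0.112). The SCNx amplitude without Ctrl CT4 and SCNx CT32 was 0.27 ± 0.07 with a peak at CT8.13 ± 0.92 h (adjusted p = 0.130), and the difference between the groups did not pass (adjusted p = 0.307). Both were not called with all SCNx libraries either (adjusted p = 0.151 and 0.696). The part of neuronal or glial RNA in the Nmnat2 values was not tested.

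Naprt, the first enzyme of the nicotinic acid route and well expressed in liver, was the least abundant of the 10 genes, also per length, with 41 to 407 counts per library. In Ctrl it ran from 1.03 CPM (CT0) through a median of 1.55 to 4.07 (CT16), and in SCNx from 1.04 (CT44) through 1.65 to 9.87 (CT0). The highest library of each group was the one with the highest hepatocyte marker sum, and the next highest values were 2.06 (Ctrl CT4) and 2.12 (SCNx CT32). Without Ctrl CT16 and SCNx CT0 the groups lay at 1.52 ± 0.318 and 1.64 ± 0.340 CPM (SD, n = 11 each). The log2 fold change, SCNx over Ctrl, was 0.42 ± 0.32 (SE) with all libraries and 0.10 without this pair, where the rhythm in SCNx had an edgeR adjusted p of 0.456 (0.275 with all). The estimated counts of Naprt lay up to 0.455 from a whole number, the largest such gap of the 10 genes, with 10 of 24 libraries over 0.01 (15 of 24 for Nmnat1, up to 0.046).

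**Figure D3:**
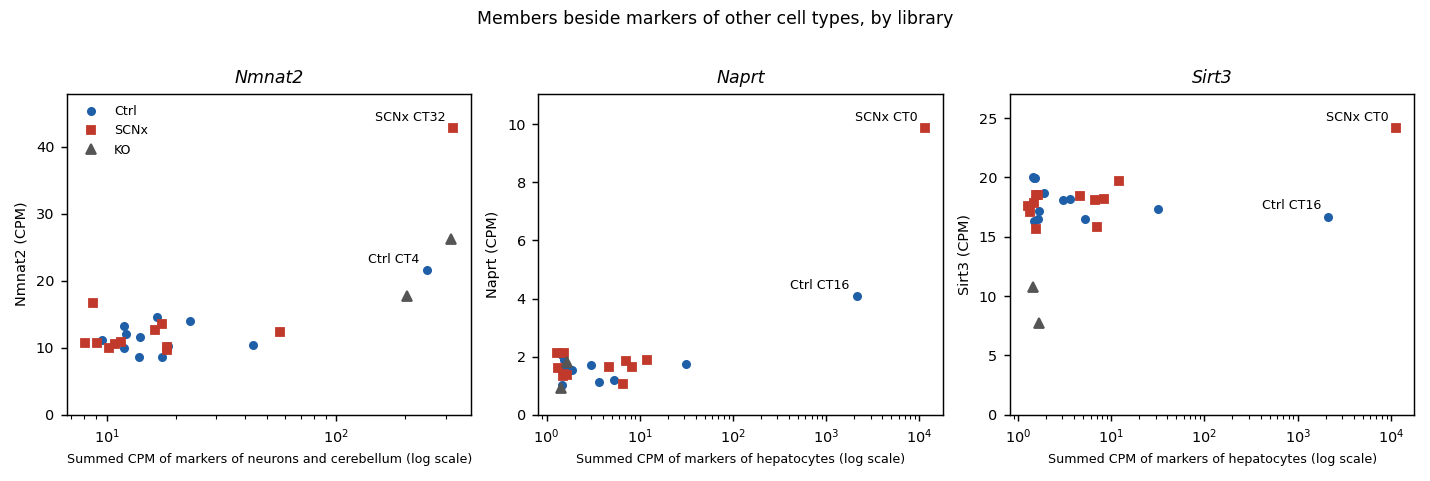
CPM of Nmnat2, Naprt and Sirt3 (y axes, from 0) against the summed CPM of neuronal and cerebellar or hepatocyte markers (x axes, log scale) in each Ctrl (circles), SCNx (squares) and KO (triangles) library. Ctrl CT4 and SCNx CT32 were the highest of their groups for Nmnat2, Ctrl CT16 and SCNx CT0 for Naprt, and SCNx CT0 (24.2 CPM) for Sirt3.

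Sirtuins remove acyl groups from proteins at the cost of NAD. Sirt3, the main deacetylase of mitochondria, had the second lowest p of the 10 genes for a rhythm in Ctrl. In Ctrl its level was 20.0 CPM at CT4, 19.9 at CT8 and 19.9 at CT28, beside 16.4 at CT0, 16.7 at CT16, 16.5 at CT20 and 16.5 at CT24. On the second day it passed from 19.9 at CT28 through 18.7 at CT32, 18.1 at CT36 and 17.3 at CT40 to 17.2 at CT44, so that on both days the highest value lay 4 h after the start of the subjective day. The amplitude was 0.13 ± 0.03 with a peak at CT7.21 ± 0.76 h, and the curve accounted for 73.7% of the variance, much as for Nampt. In the model of both groups Sirt3 was not called (edgeR p = 0.0470, adjusted p = 0.195). There 24.8% of all genes were under 0.05 before adjustment. Of 36 alternatives 2 called Sirt3, the fit of Ctrl alone (adjusted p = 0.0335, 1997 of 13697 genes called) and the rank test (0.0137). In SCNx, Sirt3 ran from 15.7 CPM (CT40) through a median of 18.1 to 24.2 (CT0, the library with liver transcripts), with 19.7 (CT8) next. Without Ctrl CT16 and SCNx CT0 its SCNx amplitude was 0.05 ± 0.04 and the Ctrl rhythm had an adjusted p of 0.0790. The difference in rhythm between groups had an adjusted p of 0.392 with all libraries.

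Sirt1, a nuclear deacetylase that acts on clock proteins, ran from 10.5 CPM (CT20) through a median of 12.7 to 15.3 (CT12) in Ctrl and from 10.4 (CT0) through 13 to 14.6 (CT32) in SCNx. The high value at CT12 was not repeated a day later, when the level at CT36 was 11.9 CPM, below the median. The amplitudes were 0.12 ± 0.05 in Ctrl (peak CT12.0 ± 1.64 h, edgeR adjusted p = 0.362) and 0.02 ± 0.07 in SCNx. Sirt2, a mainly cytoplasmic deacetylase, was steady at 72.7 ± 3.52 CPM in Ctrl and 73.9 ± 3.52 in SCNx (SD, n = 12 each), with amplitudes of 0.03 ± 0.03 and 0.06 ± 0.02. Sirt6, a chromatin-bound enzyme, lay at 6.63 ± 0.755 and 6.40 ± 0.637 CPM, with amplitudes of 0.07 ± 0.07 and 0.05 ± 0.06. No rhythm of these 3 genes was called in either group.

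Parp1, which builds ADP-ribose chains on damaged DNA and is a large consumer of NAD, varied least of the 10 genes over the Ctrl libraries. Its level ran from 32.9 CPM (CT12) through 33.9 to 36.3 (CT16) in Ctrl and from 31.7 (CT20) through 35.2 to 38.6 (CT44) in SCNx. The amplitudes were 0.01 ± 0.02 and 0.02 ± 0.04. The mean was 34.2 ± 1.05 CPM in Ctrl and 35.3 ± 1.94 in SCNx (SD, n = 12 each), and the interval of the fold was 0.993 to 1.07 (edgeR adjusted p = 0.634).

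The fitted level was higher in SCNx for 7 genes and lower for 3, and each 95% interval included no change. The median absolute log2 fold change of the 10 was 0.047, beside 0.056 over all tested genes. The intervals of the fold, SCNx over Ctrl, were narrow for Sirt2 (0.977 to 1.06) and wider for Sirt1 (0.938 to 1.10), Sirt3 (0.943 to 1.10), Nmnat1 (0.898 to 1.04), Sirt6 (0.884 to 1.06) and Nmnat3 (0.847 to 1.03). They were widest for Nmnat2 (0.868 to 1.57) and Naprt (0.867 to 2.06), the genes that followed single libraries. For these 2 genes the data do not set a close limit on a difference in level. The log2 fold change of Nmnat2 was 0.22 with all libraries and 0.03 without Ctrl CT4 and SCNx CT32.

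**Figure D4:**
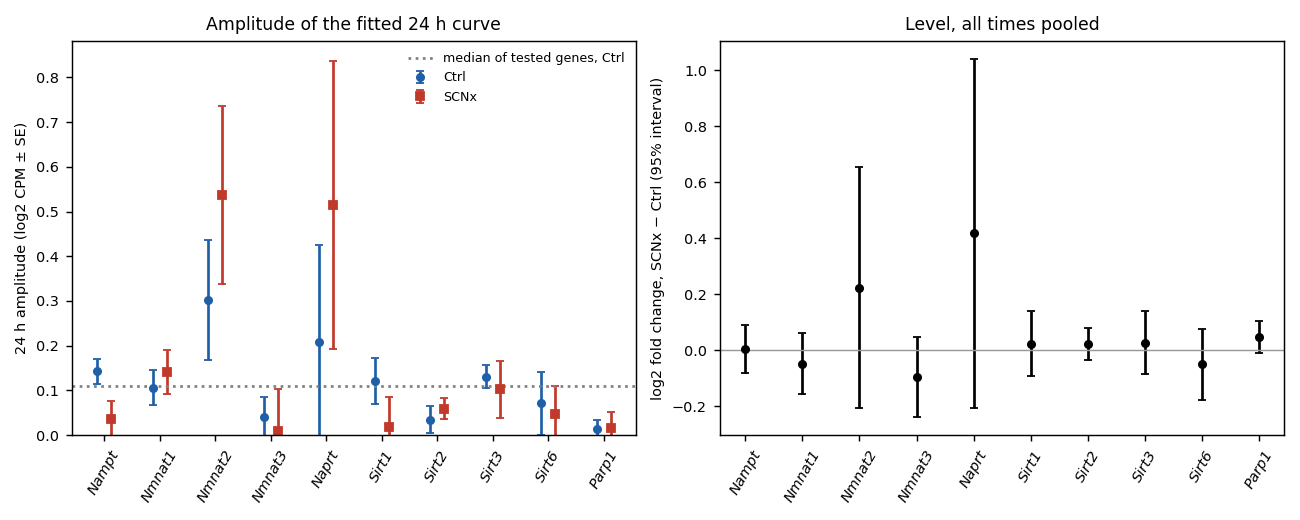
Left, amplitude of the fitted 24 h curve (log2 CPM, y axis) with its SE for each gene in Ctrl (circles) and SCNx (squares); the dotted line is the Ctrl median of all tested genes, 0.11. Right, log2 fold change of the level, SCNx over Ctrl, with its 95% interval, which includes 0 for all 10 genes and is widest for Nmnat2 and Naprt.

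Levels of different genes were compared per length, in Ctrl, as CPM per kb of the longest coding transcript. Sirt2 stood highest at 34.4 ± 1.66 (SD, n = 12), followed by Nampt (12.3 ± 1.04), Sirt3 (11.2 ± 0.882), Parp1 (8.83 ± 0.272), Nmnat1 (5.17 ± 0.434), Sirt6 (3.51 ± 0.399), Sirt1 (2.88 ± 0.289), Nmnat2 (2.63 ± 0.766), Nmnat3 (1.47 ± 0.104) and Naprt (0.915 ± 0.419). The SDs of the neighbours Nampt and Sirt3, Sirt6 and Sirt1, and Sirt1 and Nmnat2 overlapped. With the median length of coding transcripts Parp1 stood first at 71.9 and Sirt2 second at 39.6 CPM per kb, while Nmnat3 and Naprt stayed last.

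The genes most like each member were those with the highest Pearson r of log2 CPM over the 24 Ctrl and SCNx libraries, which share depth and the libraries that stood apart. For Nampt they were Zbtb14 (r = 0.853), Wee1 (0.776), a kinase that holds back mitosis, and Lonrf1 (0.766). For Nmnat2 they were Norad (0.928), Mrgpre (0.927) and Fam219a (0.914), where Spearman rho was lower, between 0.686 and 0.738. For Naprt they were Ang (0.911), Nr1h4 (0.909), the bile acid receptor of liver, and Lgals9 (0.908), with rho between 0.581 and 0.588. For Sirt3 they were Mtrf1 (0.791), Hpgd (0.789) and Coq8a (0.782). For Sirt1 they were Gm45902 (0.776), Klhl15 (0.772) and Fam126b (0.738), and for Sirt2 Bex3 (0.845), Wbp2 (0.828) and Ywhae (0.817). The highest r of the remaining genes was 0.799 for Nmnat1 (with Tnfaip1), 0.771 for Parp1 (with Sec31a), 0.737 for Sirt6 (with Carm1) and 0.644 for Nmnat3 (with Rnf135).

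Since SCNx mice may differ in the state of the ChP clock whatever the hour, the genes were also fitted in the 12 SCNx libraries against a clock state score built from clock genes. None of the 10 was called with edgeR or limma, and none passed before adjustment with edgeR (0.0511% of all genes were called, 5.15% before adjustment). The slope of Nampt was 0.06 ± 0.03 log2 units per unit of score (edgeR p = 0.0795 before adjustment). SCNx CT8 had the highest score, 2.05, with SCNx CT4 next at 0.823, and also the highest Nampt value in SCNx (63.7 CPM). Over 17 alternatives the slope of Nampt ran from 0.0092 to 0.091.

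Other NAD genes were read from lists set beside the 10. Of 21 genes of NAD synthesis and precursor handling, 13 passed the filter on mean CPM. Of these 3, Nt5e, Pnp and Tdo2, were rhythmic in Ctrl (10.7% of all genes were). Tdo2 and Kmo passed the filter with Ctrl medians of only 0.042 and 0.134 CPM. In Ctrl both were above 1 CPM in CT16 alone (41.0 and 12.0), a library with liver transcripts. Nt5e, a cell-surface nucleotidase that can turn NMN outside the cell into nicotinamide riboside, ran from 25.1 CPM (CT40) through a median of 36.6 to 55.0 (CT0) in Ctrl, with 49.6 at CT24. It peaked at CT2.15 ± 0.46 h with an amplitude of 0.49 ± 0.06 (edgeR adjusted p = 0.000177). In SCNx it ran from 27.1 (CT32) through 40.1 to 48.7 (CT16), with an amplitude of 0.16 ± 0.08, and the rhythm differed between the groups (adjusted p = 0.00659).

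Pnp, which splits nicotinamide riboside and purine nucleosides, ran from 55.9 CPM (CT4) through 82.9 to 101.7 (CT40) in Ctrl, with a peak at CT16.3 ± 0.49 h and an amplitude of 0.37 ± 0.05 (edgeR adjusted p = 0.000743). In SCNx it ran from 58.0 (CT32) through 80.4 to 90.9 (CT8), with an amplitude of 0.07 ± 0.07. The difference in rhythm of Pnp was near the threshold (edgeR adjusted p = 0.0485) and was called in 11 of 34 alternatives. SCNx CT32, the lowest in SCNx for Pnp and Nt5e, also had the lowest sum of ChP epithelium markers (104215 CPM, SCNx median 145934). The part of epithelial RNA in these values was not tested. Tdo2, a liver enzyme of tryptophan breakdown, was at 41.0 CPM in Ctrl CT16 and 89.5 CPM in SCNx CT0, the libraries with liver transcripts. Its next highest values were 0.337 and 0.30 CPM, and without either library it was under the filter and not tested. limma did not call it rhythmic in Ctrl (adjusted p = 0.406). No gene of this list was called rhythmic in SCNx with edgeR (4 of 13 before adjustment, beside 14.8% of all genes) or different in level (1 of 13 before adjustment, beside 9.37%). The 4 under 0.05 for a rhythm, Tdo2, Haao, Kmo and Afmid, were each highest in SCNx CT0, at 89.5, 54.2, 24.1 and 18.2 CPM. Their SCNx medians were 0.034, 3.91, 0.226 and 1.36 CPM.

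Of 26 NAD-using enzymes and partners, 25 were tested and 4 were rhythmic in Ctrl (10.7% of all genes were). Tiparp, which attaches single ADP-ribose units, peaked at CT13.4 ± 0.88 h, with values from 38.1 CPM (CT4) to 57.7 (CT36) and an amplitude of 0.20 ± 0.05 (edgeR adjusted p = 0.0196). Cd38, a membrane enzyme that breaks down NAD, peaked at CT10.1 ± 0.90 h with an amplitude of 0.45 ± 0.11 (edgeR adjusted p = 0.0329). Its values ran from 6.00 CPM (CT0) to 13.7 (CT8). Endothelium markers (4 of 4 genes) summed to 118 CPM in Ctrl CT0 and 200 in Ctrl CT8. Over Ctrl these sums ran from 89.9 (CT40) to 210 (CT28). The part of endothelial RNA in the Cd38 values was not tested. Ctbp1, a corepressor that binds NADH, peaked at CT23.5 ± 0.84 h with an amplitude of 0.12 ± 0.03 (adjusted p = 0.0340), and Parp3, which acts at DNA breaks, at CT6.01 ± 0.76 h with 0.15 ± 0.03 (adjusted p = 0.0483). Of these 4 genes, Parp3 passed the edgeR test of a difference in rhythm between the groups (adjusted p = 0.0484), with an SCNx peak at CT22.0 ± 1.2 h and an amplitude of 0.14 ± 0.05. That call stood in 7 of 34 alternatives. The Ctrl calls were lost in the rank test for Tiparp (0.0766), Cd38 (0.105) and Ctbp1 (0.136), as for Pnp (0.0767), and leaving out any of 7 single libraries for Cd38, 6 for Ctbp1, 14 for Parp3 and 1 for Tiparp ended them as well. No gene of this list was called rhythmic in SCNx with edgeR (5 of 25 before adjustment, beside 14.8% of all genes) or different in level (2 of 25 before adjustment, beside 9.37%).

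**Figure D5:**
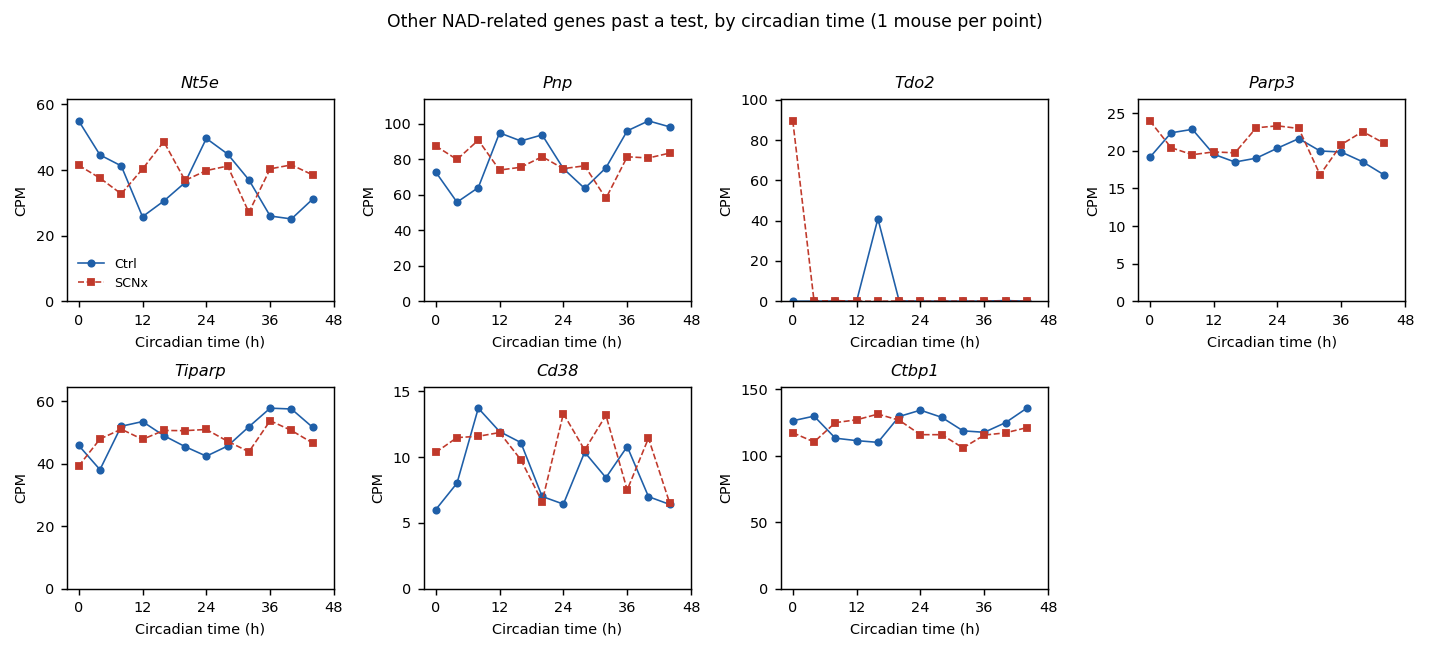
CPM (y axis, from 0) of the 7 other NAD-related genes past a test against circadian time in h, in Ctrl (blue circles) and SCNx (red squares), 1 mouse per point. Nt5e was highest at CT0 and CT24 in Ctrl and Pnp at CT40 and CT44, and Tdo2 was above 1 CPM only in Ctrl CT16 and SCNx CT0.

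In the KO libraries the targeted gene Arntl was read first, at 10.6 CPM at ZT7 and 9.36 at ZT18, a ZT18 to ZT7 ratio of 0.886 (exact binomial 95% interval 0.715 to 1.10). In Ctrl the mean of CT16, CT20, CT40 and CT44 over that of CT8 and CT32 was 6.81. A count over the whole gene does not check deletion of the floxed exons. Each KO time had 1 mouse and another library kit (total RNA from laser-captured tissue), so no test was made, the intervals cover counting error only, and levels are not compared with Ctrl. KO libraries also held neuronal marker sums of 203 (ZT7) and 316 CPM (ZT18), astrocyte sums of 743 and 866, and oligodendrocyte sums of 307 and 446. Mitochondrial genes took 25.1% and 21.8% of counts in KO, beside at most 8.77% in Ctrl and 7.49% in SCNx. The authors also give the KO mice as older and their RNA, from frozen tissue, as of lower integrity on average.

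Nampt had 57.5 CPM at ZT7 (1002 counts) and 46.1 at ZT18 (832 counts) in KO, a ratio of 0.801 (0.730 to 0.879), where the night over day value was 1.08 in Ctrl and 0.919 in SCNx. Sirt3 had a ratio of 0.722 (0.576 to 0.904), beside 0.876 in Ctrl and 0.922 in SCNx. These were the only members of the 10 with an interval below 1. KO values are plain CPM, and 1 is not a measured baseline. The epithelial marker Ttr had a ratio of 1.13 (1.13 to 1.14). The share of all genes with an interval above or below 1 was not counted. The ratio was 1.22 (1.01 to 1.47) for Nmnat1, 1.48 (1.28 to 1.72) for Nmnat2, 1.38 (1.25 to 1.53) for Sirt2, 1.62 (1.10 to 2.41) for Sirt6, 1.21 (1.07 to 1.37) for Parp1 and 1.99 (1.06 to 3.87) for Naprt, which had 16 and 33 counts. The KO library in which these genes were higher, ZT18, also had the higher neuronal, astrocyte and oligodendrocyte sums. The part of such RNA in these values was not tested. The intervals of Sirt1 (0.863 to 1.19) and Nmnat3 (0.799 to 2.03) included 1.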

How the data were processed

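ChP RNA of 12 Ctrl, 12 SCNx and 2 KO mice was sequenced (polyA RNA for Ctrl and SCNx, total RNA of laser-captured tissue for KO). The authors mapped single-end reads to GRCm39 and deposited estimated counts per gene from Salmon 1.9.0. Whether counting used strand is not given in the sources used here, so overlapping genes cannot be told apart.

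Groups came from the labels. The estimated counts were rounded, and genes with a mean of at least 1 CPM in Ctrl and in SCNx were kept. They were scaled by TMM and fitted in 1 model of the 24 libraries that gave each group its own mean and 24 h cosine and sine terms (edgeR 4.0.16 quasi-likelihood, R 4.3.3). Levels were fitted with a mean per group. P-values were Benjamini-Hochberg adjusted over all tested genes. Amplitudes, peaks and their SE came from least squares on log2 CPM (prior count 1), and CPM in Ctrl and SCNx use the scaled library size. KO values are plain CPM. Each time had 1 mouse per group, so the spread is that around the fitted curve or the group mean.

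Alternatives were DESeq2 1.42.0, limma 3.58.1, DESeq2 size factors, other filters, separate fits, a rank test of the eJTK type (132 templates), a linear trend, circadian time as a block and left-out libraries. Scripts were tested on simulated data. Named were the 10 genes, listed genes past a test, the 3 genes most like each member and 4 clock genes. Haao, Kmo and Afmid were also named, for their values in libraries with liver transcripts. The members, lists and alternatives were chosen with earlier results of these data known. Lengths were those of coding transcripts in GENCODE vM21, since the RefSeq table used here gives no transcript length. Promoter positions are those of the RefSeq table on GRCm38.p6, and no other gene positions are given, since that build is not the one of the files.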

Additional observations from a re-analysis of the deposited data

Results flagged for a closer look

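In 4 listed genes the 24 h rhythm differed between Ctrl and SCNx by the edgeR test of the difference itself. They were 3 of the 13 tested synthesis genes and 1 of the 25 tested NAD-using genes, beside 2.12% of all genes. None of the 10 members was among them. Nt5e had an adjusted p of 0.00659 and was called in all 34 alternatives run. Pnp (adjusted p = 0.0485) and Parp3 (0.0484) lay at the threshold, with ranges of 0.00318 to 0.127 and 0.00898 to 0.219 over their 34 alternatives. Leaving out 1 library ended the Pnp call except for Ctrl CT16, SCNx CT8 and SCNx CT32, and ended the Parp3 call except for Ctrl CT32, SCNx CT28, SCNx CT36 and SCNx CT44. Tdo2 (adjusted p = 0.0410) was above 1 CPM in Ctrl CT16 and SCNx CT0 alone, where hepatocyte markers summed to 2130 and 11372 CPM, and was not tested without them.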

How the results depend on the processing

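The count of members rhythmic in Ctrl, 1 with all libraries, ran from 0 to 1 when single libraries were left out (0 without Ctrl CT4, CT16, CT24 or CT36). It was 0 without a filter (1116 of all 40287 genes called), without Ctrl CT16 and SCNx CT0 (1669 of 13591), and with a linear trend (1447 of 13697). It was 2 without Ctrl CT4 and SCNx CT32 (Nampt and Nmnat2, 2223 of 13490 genes called) and in separate fits (Nampt and Sirt3, 1997 of 13697). Without all 4 of those libraries it was 1, and that gene was Nmnat2 (2901 of 13374 genes called). In the rank test it was also 1, and that gene was Sirt3 (adjusted p = 0.0137), with Nampt not called (0.0778). The adjusted p of Nampt was called in 27 of 36 alternatives, from 0.00597 (DESeq2) to 0.130 (no filter), and was 0.0515 with a linear trend and 0.0760 without the 4 libraries. Members rhythmic in SCNx numbered 1, Nmnat2, with DESeq2 (adjusted p = 0.0234, 432 of all 13697 genes called) and without a filter (0.00827, 1384 of 40287). In the other alternatives they numbered 0. No member was called for a difference in rhythm or level, or for clock state, in any alternative run, including levels with circadian time as a block. Causes were not tested.

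Level changes near 0 turned sign. Nampt was -0.0064 without a filter, -0.016 without Ctrl CT4 and SCNx CT32, and -0.013 to 0.020 with single libraries left out. Sirt3 was -0.024 without Ctrl CT16 and SCNx CT0 and -0.014 without the 4 libraries. With 1 library left out the level change ran from -0.072 (SCNx CT32) to 0.33 for Nmnat2, -0.086 (SCNx CT0) to 0.61 for Naprt, -0.015 (SCNx CT0) to 0.046 for Sirt3 and -0.00092 (Ctrl CT20) to 0.049 for Sirt1. The clock state slope of Nmnat2 was -0.30 with cosine and sine in the model, and with 1 library left out the slopes ran from -0.057 to 0.056 for Nmnat3, -0.026 to 0.038 for Sirt2, -0.045 to 0.0021 for Sirt6 and -0.010 to 0.052 for Parp1.

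Over all genes, rhythms in Ctrl numbered 1459, 2053 with DESeq2, 918 without Ctrl CT44, 2249 without SCNx CT32, 2223 without Ctrl CT4 and SCNx CT32 and 2901 without the 4 libraries. Rhythms in SCNx numbered 432 with DESeq2, 1384 without a filter and 6 without SCNx CT24. Differences in rhythm ran from 163 to 654, and level differences numbered 14 with DESeq2 and 3 without SCNx CT32. Clock state calls ran from 4 to 23. Leaving out single libraries also ended the Ctrl calls of Cd38 (Ctrl CT0, CT8, CT12, CT20, CT24, CT36 and CT44, up to 0.106), Ctbp1 (Ctrl CT8, CT12, CT24, CT28, CT32 and CT44, up to 0.0791), Tiparp (Ctrl CT36, 0.0521) and Parp3 (14 libraries, up to 0.15). A difference in rhythm was also called for Ctbp1 with DESeq2 (0.0369) and with a linear trend (0.0213), in 2 of 34 alternatives. The labels give no replicate numbers, and the Ctrl and SCNx mouse of a block share only the time.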
